A study of Mus musculus with 3 samples.

Results

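The Sall genes encode zinc finger transcription factors related to the spalt gene of Drosophila. The family was taken as Sall1, Sall2, Sall3 and Sall4, and every probe set of the array whose annotation gave exactly 1 gene symbol, that symbol being 1 of these, was a member. This gave 7 probe sets for 4 of the 18193 genes measured, with 2 probe sets each for Sall1, Sall3 and Sall4 and 1 for Sall2. None of the Sall probe sets carried several symbols. The samples were genital tubercles, the embryonic outgrowths that become the penis or the clitoris, of 3 mice at embryonic day 14, Theiler stage 22, all labelled as males. All were offspring of FVB/N females and males with the transgene SMAA/EYFP, a yellow fluorescent reporter named for smooth muscle actin (Acta2), and its fluorescence guided the dissection. No sample was pooled, and the cells of the region were not sorted. Each sample was hybridised to 1 array. The developmental landmark is the 1 label that differs, namely fingers that can be seen in replicate 3, against a footplate with an indented border in replicates 1 and 2. No control or treated group was made, and nothing in the labels says whether the embryos shared a litter.

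Sall proteins act mostly as repressors. An amino-terminal motif of Sall1, Sall3 and Sall4 recruits the NuRD complex, which joins histone deacetylases to a chromatin remodeller. In humans, mutations of SALL1 cause Townes-Brocks syndrome, with malformations of the anus, ears, thumbs and kidneys, and mutations of SALL4 cause Duane-radial ray syndrome, with defects of the forearm, thumb and eye movement. In mice, Sall1 is required for the kidney to form, Sall4 is required in the early embryo and in limb development, and Sall1 and Sall3 act together in the limb bud.

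Windows from the RefSeq promoter table (build GRCm38.p6) were examined for Sall1, with 3 start sites, and for Sall2, with 2. The selection left out a chromosome, so the lack of a Sall3 window here does not show that the table holds none. No entry for Sall4 was found in the table. The 250 bases before 3 of these starts are printed because they differ in base composition between members and between the starts of Sall2. All read 5′ to 3′ towards the start. Capitals mark matches, on either strand, to the GC box GGGCGG, to the motif CCAAT bound by the factor NF-Y, to the TATA box motif TATAAA and to TAATTA, which many homeodomains bind. The motif CG (CpG) was counted too and is not capitalised, and it overlaps the GC box.
Sall1, chr8:89043513-89043762, minus strand: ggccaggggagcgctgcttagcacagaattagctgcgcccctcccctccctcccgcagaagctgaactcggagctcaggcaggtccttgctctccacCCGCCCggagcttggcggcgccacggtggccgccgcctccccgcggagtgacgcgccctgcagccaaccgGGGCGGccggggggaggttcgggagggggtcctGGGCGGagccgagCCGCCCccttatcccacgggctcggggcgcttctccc
Sall2, chr14:52328671-52328920, minus strand: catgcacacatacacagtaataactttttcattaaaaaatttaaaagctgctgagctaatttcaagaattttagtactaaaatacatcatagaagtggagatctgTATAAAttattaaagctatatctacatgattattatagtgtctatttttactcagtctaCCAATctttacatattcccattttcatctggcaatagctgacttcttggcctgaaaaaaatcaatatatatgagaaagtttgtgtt
Sall2, chr14:52316324-52316573, minus strand: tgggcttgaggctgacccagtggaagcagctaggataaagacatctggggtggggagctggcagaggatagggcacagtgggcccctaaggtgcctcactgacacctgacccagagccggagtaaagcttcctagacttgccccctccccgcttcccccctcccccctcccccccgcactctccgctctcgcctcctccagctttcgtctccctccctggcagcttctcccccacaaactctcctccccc

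The Sall1 window shown had a GC content of 74.4%, with 25 CpG and 4 GC boxes. The other Sall1 starts had 56.4% with 13 CpG and 78.4% with 30 CpG. Of the Sall2 windows, the AT-rich one (28% GC) had 0 CpG, 1 TATA box and 1 CCAAT match, and the other had 64.4% GC, 6 CpG and 0 matches to the other motifs. Over 32851 windows of the same length in the table, 32.7% held a GC box, 33.8% the motif CCAAT, 12.4% a TATA box, 4.84% the homeodomain motif and 92.1% at least 1 CpG, with a median GC content of 52.4%. Probe sets of this kind of array mostly lie near the 3′ ends of transcripts, so the signals do not tell which start was used.

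The arrays were first compared as a whole. Background was the 95th percentile of the signals of 81 probe sets for smell, pheromone and bitter taste receptors. It was 197 in replicate 3, against 135.8 and 253.1 in replicates 1 and 2. Xist, the RNA of the inactive X chromosome, had a signal of 61883 in replicate 3, against 8.05 and 118 in replicates 1 and 2, and the Y-linked Eif2s3y, Kdm5d and Uty were above background in replicates 1 and 2 and not in replicate 3. Replicate 3 therefore goes against its male label, and every direction below that rests on it carries this limit. The 3′ probe set of the 18S ribosomal control read 60294 in replicate 3, against 13587 and 78759 in replicates 1 and 2, so that replicate 1 was the lowest. Liver genes had a summed signal of 9260.5 in replicate 3, against 113802 and 52303 in replicates 1 and 2, and skeletal muscle genes of 2844, against 24826 and 7001. No marker on any list was at 0. Tubercle mesenchyme markers were above background in 3 of 3 samples for 6 of 6 measured genes and epithelial markers for 6 of 6.

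Sall1, Sall2, Sall3 and Sall4 each had a probe set above background in all 3 samples. This held for 6 of the 7 Sall probe sets, where 48.0% of all probe sets passed, and by gene, each represented by its brightest probe set, for 4 of 4, where 60.5% of all genes passed. Leaving out 1 replicate could not change the count of 6, since these passed in every sample and the other passed in replicate 2 alone. Signals depend on the probes as well as the transcript, so the levels of different genes were not set against each other. In whole tissue, fewer expressing cells and less RNA per cell cannot be told apart. With 3 arrays the precision of all values is limited.

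Sall1, the Townes-Brocks gene, was read by the probe sets 1437983_at and 1450489_at. The signal of 1437983_at was 8632 in replicate 3, against 9936 and 12451 in replicates 1 and 2, or 43.7 times background against 73.2 and 49.2 times. It averaged 10340.0 ± 1941 (SD, n = 3). All 3 values lay far above background and replicate 3 was the lowest. The probe set 1450489_at read 105 in replicate 3, against 90.1 and 299 in replicates 1 and 2. It was above background in replicate 2 alone, at 1.18 times background, and was not above it in any sample with background at the 99th percentile. The probe sets of Sall1 thus disagreed on whether the gene was above background. Sall1 marks nephron progenitors and microglia in other organs. Of the nephron progenitor markers 1 of 6 measured was above background in 3 of 3 samples, with a summed signal of 1808 in replicate 3, against 1701 and 2919 in replicates 1 and 2. That 1 gene was Six2. Osr1 passed in replicates 2 and 3 and Meox1 in replicate 1 alone, while Wt1, Cited1 and Pax8 passed in 0 of 3 samples. Of the macrophage and microglia markers 4 of 7 were above background in 3 of 3 samples (Csf1r, Cx3cr1, Tmem119 and Adgre1), with a summed signal of 6921 in replicate 3, against 8700.5 and 6258 in replicates 1 and 2. The microglial receptor P2ry12 passed in replicate 1 alone, C1qa in replicates 1 and 2, and Aif1 in 0 of 3 samples. Of all genes 60.5% passed in 3 of 3 samples. The part of these cells in the Sall1 signal was not tested.

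Sall2, the member most divergent in sequence, acts in neural tissue and in the closing of the eye's optic fissure. Its probe set, 1416638_at, read 2020.25 in replicate 3, against 2277 and 2459 in replicates 1 and 2, which is 10.2 times background against 16.8 and 9.72 times. Its mean was 2252 ± 220.5 (SD, n = 3), and the deposited signals were close together, with replicate 3 the lowest. Relative to background the samples were less close, with replicate 2 the lowest and replicate 1 the highest. Neuronal markers were above background in 3 of 3 samples for 4 of 6 measured genes, and their summed signal was 3097 in replicate 3, against 2404 and 2971 in replicates 1 and 2. Their part in the Sall2 signal was not tested.

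Sall3, which in mice acts with Sall1 in the limb bud and is needed for cranial nerves, had signals not far from background. Its probe set 1441186_at read 433 in replicate 3, against 298 and 469 in replicates 1 and 2, between 1.85 and 2.20 times background throughout. The probe set 1452386_at read 443 in replicate 3, against 137 and 504 in replicates 1 and 2. In replicate 1 it was 1.01 times background, so its call there rests on the limit chosen, and it failed with background at the 99th percentile (159.6 in replicate 1). By deposited signal both probe sets placed replicate 1 lowest and replicates 2 and 3 close to each other. Relative to background this did not hold for 1441186_at, at 2.19 times in replicate 3, against 2.20 and 1.85 times in replicates 1 and 2. The order of that probe set thus depends on the scale used.

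Sall4, a factor of pluripotent and germ cells that also acts in the limb bud, was read by 1424152_at and 1424153_s_at. The signal of 1424152_at was 5648 in replicate 3, against 9429.9 and 7338 in replicates 1 and 2, or 28.6 times background against 69.4 and 29.0 times. It averaged 7472 ± 1894 (SD, n = 3). Replicate 3 was the lowest and replicate 1 the highest. The probe set 1424153_s_at ordered the samples otherwise, with 1638 in replicate 3, against 423 and 2987 in replicates 1 and 2. It was above background in 3 of 3 samples and lowest in replicate 1, where the other Sall4 probe set was highest. Germ cell markers were above background in 3 of 3 samples for 2 of 6 measured genes, Prdm1 and Tfap2c, both also expressed in epithelia. Their list had a summed signal of 17659 in replicate 3, against 23588 and 17137 in replicates 1 and 2. The germ cell genes Ddx4, Dazl, Dppa3 and Mael passed in 0 of 3 samples.

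**Figure D1:**
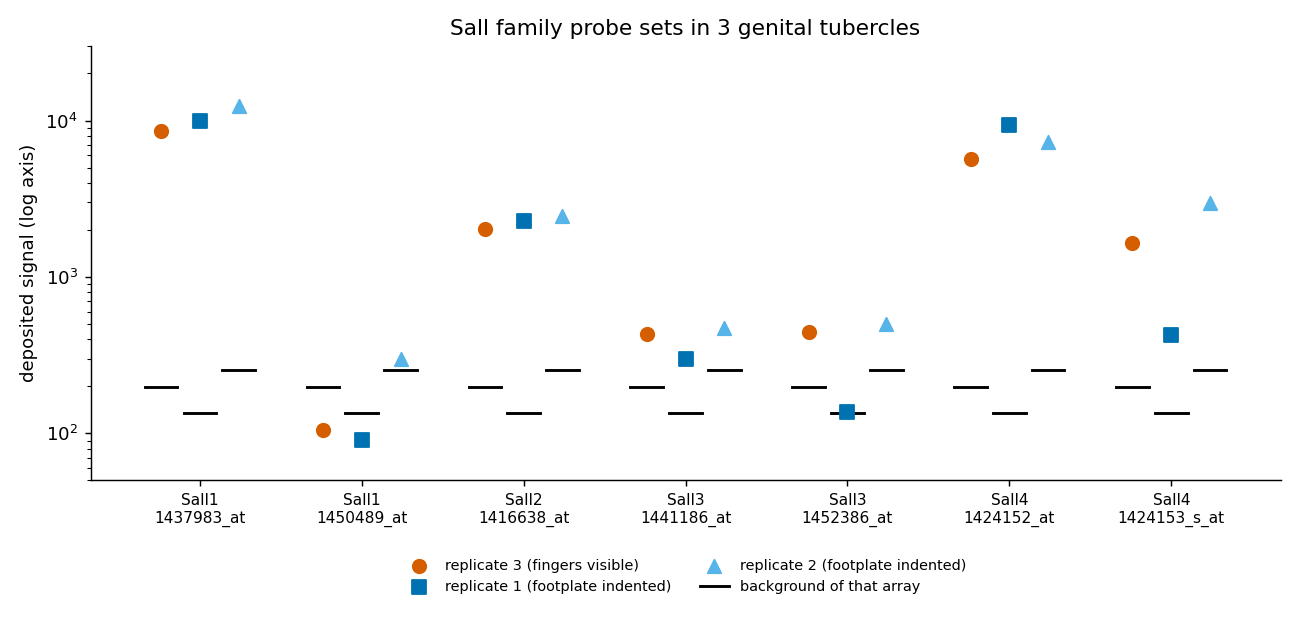
Deposited signal (log axis) of the 7 Sall probe sets in replicate 3 and replicates 1 and 2, with a bar at the background of each array. Points for 6 probe sets lie above background in 3 of 3 samples, while 1450489_at of Sall1 passes in replicate 2 alone and 1452386_at of Sall3 touches background in replicate 1.

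Probe sets of 1 gene were then compared within each array, where a changing ratio shows that they did not move together. For Sall4, 1424153_s_at read 29.0% of 1424152_at in replicate 3, against 4.48% and 40.7% in replicates 1 and 2, a range of 9.08-fold. That range was 3.18 on the log2 scale for Sall4, against a median of 0.86 among 2891 genes with exactly 2 probe sets above background in 3 of 3 samples. Of these genes 1.90% had a larger one. For Sall3, 1452386_at was 102% of 1441186_at in replicate 3, against 46.1% and 107% in replicates 1 and 2, and 33.1% of genes had a larger range. For Sall1 the ratio was 1.21% in replicate 3, against 0.907% and 2.40% in replicates 1 and 2, with the dimmer probe set above background in replicate 2 alone, so its order was not read. For Sall3 and Sall4 the ratio was lowest in replicate 1 and highest in replicate 2, an order found in 36.9% of the 2891 genes. The control for Actb (β-actin) had the same order, its 5′ probe set at 22.6% of its 3′ one in replicate 3, against 13.5% and 45.2% in replicates 1 and 2. The Gapdh control had 7.11% in replicate 3, against 4.65% and 6.72% in replicates 1 and 2. Replicate 1 was lowest in both. The 18S control ran otherwise, at 69.7% in replicate 3, against 81.9% and 89.2% in replicates 1 and 2, with replicate 3 the lowest. Low 5′ signal goes with shorter RNA or shorter amplified product, and the part of RNA length in the Sall4 and Sall3 ratios was not tested.

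**Figure D2:**
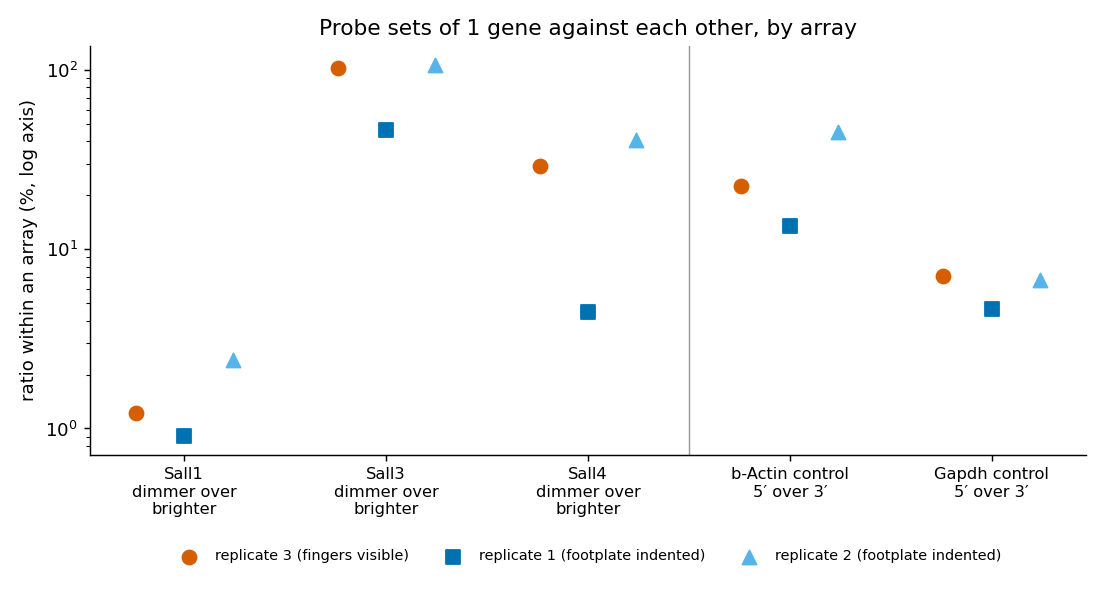
Ratio of the dimmer to the brighter probe set of Sall1, Sall3 and Sall4 within each array, and of the 5′ to the 3′ control probe sets of Actb and Gapdh (percent, log axis). Replicate 1 is lowest in all 5 columns (the dimmer probe set of Sall1 was above background in replicate 2 alone), and Sall4 has the widest span, 4.48% to 40.7%.

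The spread between samples was measured as the SD of log2 signal after the arrays were aligned on the median of probe sets above background in 3 of 3 samples. Over these 21612 probe sets the median SD was 0.36. Sall2 had 0.13 and Sall1 (1437983_at) 0.20, with 9.08% and 20.0% of probe sets having a smaller SD. With probe sets split by level into low, middle and high groups of equal size, the middle group (which holds Sall2) had a median SD of 0.37 and the high group (which holds Sall1) 0.32. Sall3 had 0.25 by 1441186_at, in the low group (median 0.42), and 0.94 by 1452386_at. Sall4 had 0.43 by 1424152_at and 1.34 by 1424153_s_at, where 98.3% of probe sets had a smaller SD. Replicate 1 set the wide values. Without replicate 1 the SD was 0.032 for 1452386_at and 0.51 for 1424153_s_at. In aligned signals replicate 1 was over 2-fold below both other samples in 2 of the 6 Sall probe sets above background, these 2, against 7.09% of all such probe sets. The folds were 3.03 in replicate 3 and 3.13 in replicate 2 over replicate 1 for 1452386_at, and 3.65 and 6.04 for 1424153_s_at. Those of 1452386_at rest on a value at the limit of detection, 1.01 times background in replicate 1. It was 2.24 times background in replicate 3 and 1.99 times in replicate 2.

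**Figure D3:**
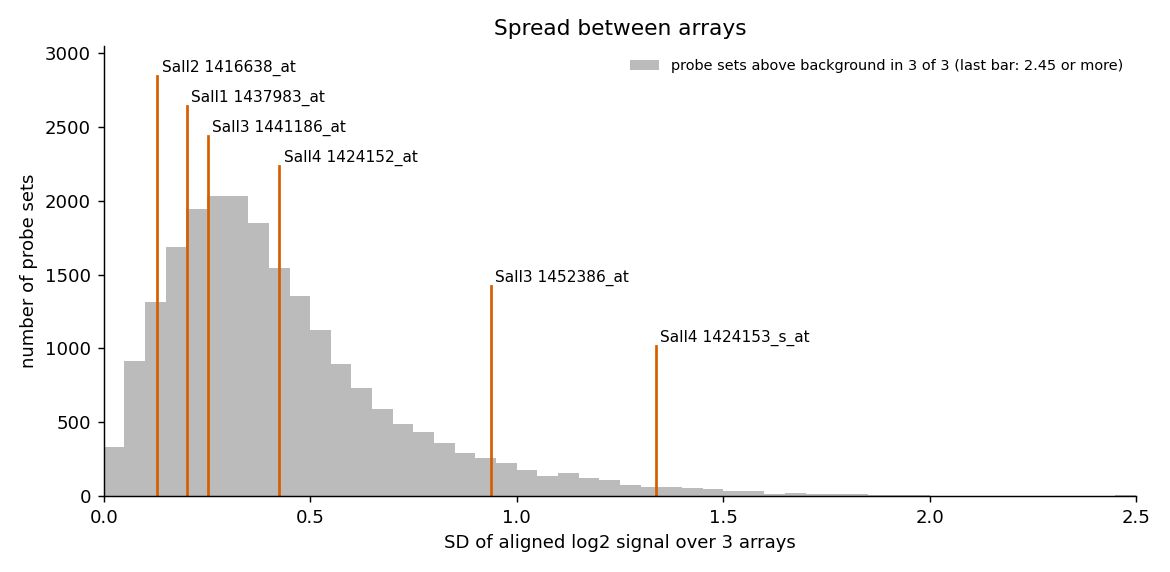
Histogram of the SD of aligned log2 signal over 3 arrays for the 21612 probe sets above background in 3 of 3 samples, with a line for each of the 6 Sall probe sets among them. Sall2 (0.13) and Sall1 (0.20) lie left of the peak, and 1424153_s_at of Sall4 (1.34) lies in the right tail.

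The landmark was the comparison the labels allow, with replicate 3 (visible fingers) set against replicates 1 and 2 (an indented footplate). None of the 7 Sall probe sets passed limma's test at a Benjamini-Hochberg adjusted p under 0.05 over the 29065 probe sets that passed background in 1 sample or more (64.5% of all, and all 7 of the Sall family), and every Sall probe set had an adjusted p of 1.00. Over all probe sets limma called 0 higher and 0 lower (0% of those tested), with 604 at an unadjusted p under 0.05. Even Xist, and Eif2s3y with a log2 difference of -6.71, were not called, so the lack of a Sall call carries no information. Sall1 (1437983_at) differed by -0.34 ± 0.60 (log2 difference ± SE, replicate 3 minus the mean of replicates 1 and 2), Sall2 by -0.20 ± 0.60 and Sall4 (1424152_at) by -0.53 ± 0.65. In these 3 probe sets replicate 3 was below both other samples, by aligned and by deposited signals. Relative to background, Sall2 was lowest in replicate 2 instead. In aligned signals, replicate 3 was below both others for 26.3% of all probe sets above background. Sall3 (1441186_at) differed by 0.24 ± 0.63, the 1 Sall probe set with replicate 3 above both others after alignment (27.5% of all), although the deposited signal was higher in replicate 2. It was 0.027 without replicate 1 and 0.45 without replicate 2, and the difference of 1424152_at was -0.24 without replicate 1 and -0.83 without replicate 2. The other probe sets had 0.78 ± 0.93 (1452386_at of Sall3), 0.57 ± 1.27 (1424153_s_at of Sall4) and -0.62 ± 0.89 (1450489_at of Sall1), with replicate 3 between the other samples. The value of 1450489_at sets signals against each other that were not above background in replicates 1 and 3, and with a floor at background it was -0.0031. The signs of these 3 rested on 1 library. Without replicate 1 the difference was -0.046 for 1452386_at and -0.73 for 1424153_s_at, and without replicate 2 it was 0.13 for 1450489_at. The median over the 7 Sall probe sets was -0.20 and over all probe sets 0.047. Sall4 had opposite signs by its probe sets, and their mean gave 0.019. The contrast leaves 1 residual degree of freedom, takes the spread of replicate 3 to equal that of the other samples, and cannot tell the landmark apart from the sex-linked values or any other feature of replicate 3.

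**Figure D4:**
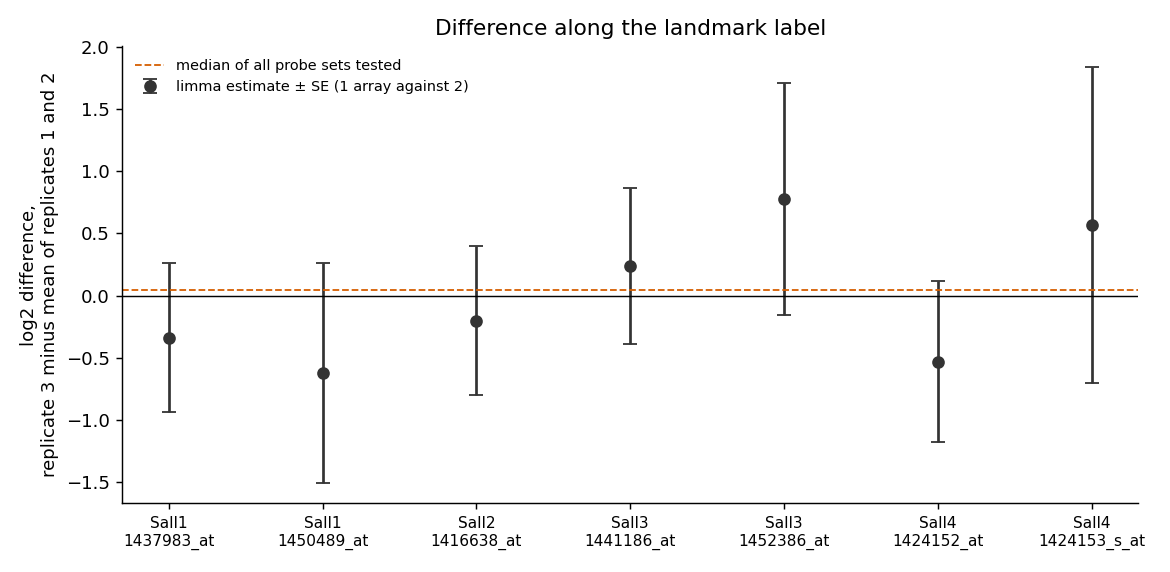
Log2 difference of replicate 3 from the mean of replicates 1 and 2 for the 7 Sall probe sets (points, limma estimates; bars, SE), with the median of all probe sets tested as a dashed line. The estimates run from -0.62 (1450489_at of Sall1, not above background in replicates 1 and 3) to 0.78, and the probe sets of Sall4 (-0.53 and 0.57) lie on opposite sides of 0.

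Genes linked to the family were counted next. Of 61 measured genes on 7 lists, 45 (73.8%) were above background in 3 of 3 samples, beside 60.5% of all genes. Without replicate 3 the count was 46, and leaving out a sample could only keep or raise it. Along the landmark limma called 0 of them in either direction, a count without information in a test that missed Xist. The NuRD complex had 13 of 14, all but the remodeller Chd5, which was above background in replicate 3 alone. The deacetylase Hdac2 had 32501 in replicate 3, against 33875 and 35335 in replicates 1 and 2, and the histone-binding subunit Rbbp4 64397, against 56358 and 69019. These values were close together in all samples. The remodeller Chd4 and the zinc finger subunit Gatad2b were not, with 1504 in replicate 3, against 393 and 8434 in replicates 1 and 2 for Chd4 (1436343_at), and 5250.1 in replicate 3, against 988 and 13127 for Gatad2b (1425075_at). They were the 2 of 45 genes with replicate 1 over 2-fold below both other samples, and were named after their values were seen. The Chd4 probe set 1438476_a_at was low in replicate 1 too. It read 344 in replicate 3, against 154 and 650 in replicates 1 and 2. The other, 1451295_a_at, read 1629 in replicate 3, against 1714 and 1605 in replicates 1 and 2. For Gatad2b, 1437474_at was above background in 3 of 3 samples too and read 1340 in replicate 3, against 1025 and 1468. In aligned signals it was 1.23 times in replicate 3 and 1.22 times in replicate 2 its value in replicate 1. The remaining Gatad2b probe sets were not above background in 3 of 3 samples. The low value of replicate 1 was thus seen in some probe sets and not in others, as for Sall4. Its cause was not tested.

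Regulators that act with Sall genes in the limb bud and kidney were above background in 3 of 3 samples for 7 of 9 genes. The T-box factor Tbx5, which activates Sall4 in the forelimb, read 5275 in replicate 3, against 2523 and 16977 in replicates 1 and 2, with the highest value over 6 times the lowest as deposited. Gli3, which acts with Sall4 in the limb bud, read 17774 in replicate 3, against 19000.2 and 17904 in replicates 1 and 2. Kif26b, a kinesin gene activated by Sall1 in the kidney, read 13847, against 15122 and 17468. Both were close in all samples. Gdnf, the ureteric bud signal, was above background in replicate 1 alone, and Fgf10 in replicates 1 and 3.

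Townes-Brocks protein partners were above background in 4 of 4, namely Dact1, a Wnt modulator gene mutated in a related syndrome, and the ciliary genes Ccp110, Cep97 and Luzp1. Dact1 read 11319.6 in replicate 3, against 11232 and 13649.6 in replicates 1 and 2. Genes of genital, anorectal and digit malformation had 12 of 14, among them Hoxd13 with 43365 in replicate 3, against 39032 and 39846 in replicates 1 and 2. Those that did not pass were Hoxa13 and Fgf10, each read by 1 probe set, so a failed call does not show that the gene was absent. The cereblon ubiquitin ligase, through which thalidomide leads to degradation of human SALL4, and its targets had 6 of 9, with the substrate receptor Crbn at 3705 in replicate 3, against 4299 and 2509 in replicates 1 and 2. Rbx1, also read by 1 probe set, Ikzf1 and Ikzf3 did not pass. Of reported Sall2 targets 4 of 5 passed, all but Cdkn2a.

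The pluripotency factors that act with Sall4 in embryonic stem cells were mostly not above background, with 2 of 10 passing, Sox2 and Klf4, both also expressed in epithelia. Sox2 read 1824 in replicate 3, against 695 and 781 in replicates 1 and 2, and Klf4 20707, against 15529.7 and 10842. Both were highest in replicate 3. Pou5f1, Nanog, Esrrb, Lin28a, Lin28b, Dppa4 and Zfp42 were above background in 0 of 3 samples, and Tfcp2l1 in replicate 1 alone. Median landmark differences were 0.70 for the 3 tested genes of this list and between -0.17 and 0.0040 for the other lists, beside 0.047 over all probe sets.

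**Figure D5:**
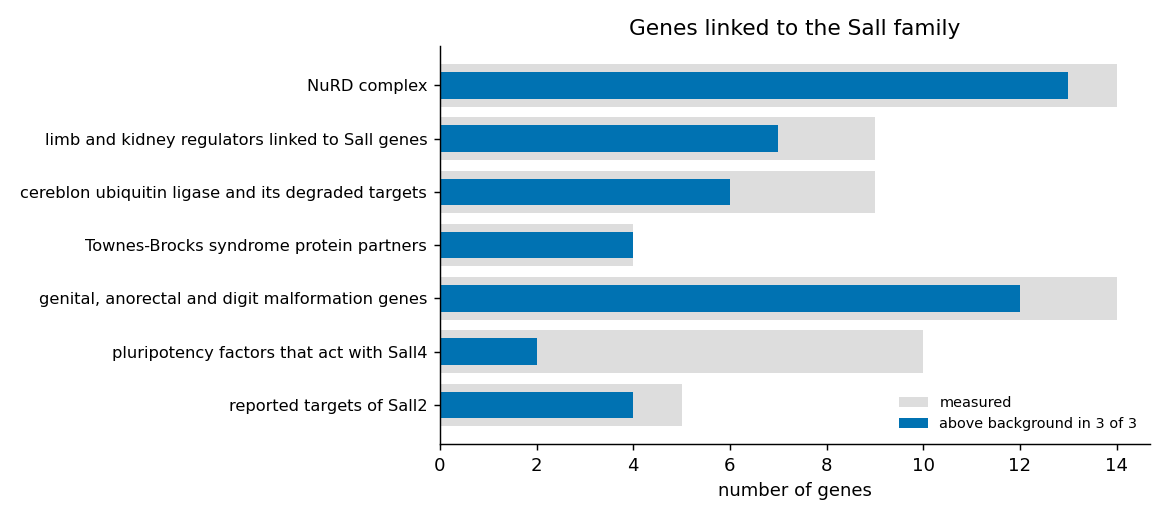
Number of genes measured (grey) and above background in 3 of 3 samples (blue) on the 7 lists of genes linked to the Sall family. NuRD genes pass in 13 of 14 and pluripotency factors in 2 of 10.

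The genes with the pattern most like each member were found over 3 samples by the largest gap between aligned log2 profiles, each centred on its own mean, among 11005 other genes above background. The nearest to Sall1 were Zfp839, Ankrd13d and Gm2137. The nearest to Sall2 were Unk, 2510009E07Rik and Jun, those to Sall3 Foxl2, Dzip3 and Cep44, and those to Sall4 Emc9, Vkorc1 and Zc3h13. Their gaps ran from 0.0057 to 0.013. With 3 samples many genes lie close, and 346, 637, 182 and 237 genes were within 0.1 of Sall1, Sall2, Sall3 and Sall4. Among the members, Sall1 and Sall2 were closest, at a gap of 0.15, with 7.34% of genes nearer to Sall1. These patterns rest on the brightest probe set of each gene, 1441186_at for Sall3 and 1424152_at for Sall4, and the other Sall4 probe set ordered the samples otherwise.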

How the data were processed

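Per the submitters' processing notes the authors used GCOS to make the deposited values, linear intensities with 1 value for each probe set on each array. Its settings and version were not given in the sources used here. After trimming 2% of values at each end, all arrays had a mean of 1500.0. The table has 45101 probe sets, of which 64 are controls, and 34945 of the rest had exactly 1 symbol. Intensities were floored at 1 and taken to log2. The arrays' medians lay 0.23 apart over probe sets that passed background in all samples, and 0.70 apart over all probe sets, and the first were used to align the arrays. Signals are printed as deposited. SDs, differences and folds between arrays use aligned values, while ratios within an array use deposited ones. The landmark was tested with limma 3.58.1 in R 4.3.3 (lmFit, eBayes, two-sided p adjusted by Benjamini-Hochberg) over the 29065 probe sets that passed background somewhere. The text names all Sall probe sets, genes of the lists and the 3 nearest patterns. Members and lists were chosen with earlier results of these data known. Erythroid markers passed background in all samples for 3 of 5 measured genes, liver for 4 of 7 and skeletal muscle for 4 of 8. Alternatives covered background, alignment, floor, filter, variance trend and left-out samples. Unused columns numbered 0.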

Additional observations from a re-analysis of the deposited data

How the results depend on the processing

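With the main settings the landmark test, with 1 sample in an arm, called neither Xist nor Eif2s3y. Whether the alternatives that made calls included them is not given here. The absence of Sall calls under the 8 alternatives of alignment, floor, filter or variance model was therefore not read as stability. The signs of the Sall differences did not change under those of these alternatives in which each was tested. These were 8 for 6 probe sets and 7 for 1450489_at, which failed the filter on 3 of 3 samples. Leaving out 1 replicate did reverse signs, for 1452386_at and 1424153_s_at without replicate 1 and for 1450489_at without replicate 2. With a floor at background the difference of 1450489_at was -0.0031. The count of calls over all probe sets was 0 and became 86 with arrays aligned over all probe sets, 3 with a floor at background and 1 with only probe sets above background in 3 of 3 samples. The cause was not tested. The count of Sall probe sets above background stayed at 6 with the 90th percentile and was 5 with the 99th percentile or the array median as background. The median SD of all 7 Sall probe sets, 0.43, ran from 0.34 to 0.64 over alternatives of scale and from 0.17 to 0.42 with 1 replicate left out. With arrays aligned over all probe sets, the SD was 0.34 for Sall2 and 0.092 for 1441186_at of Sall3. With the mean of all probe sets of a gene the landmark difference was 0.51 for Sall3 and 0.019 for Sall4. Genes of the partner lists above background numbered 44 to 46 over all alternatives run, of which those that left out a sample could not lower the count. No paired analysis was possible because the samples form 1 group. The low signals of Sall3 and of 1450489_at leave these near the limit of detection.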
